A study of Mus musculus with 2 samples.

Results

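The replication-dependent histone genes of the mouse were taken as the protein-coding genes whose GENCODE M21 symbol starts with Hist1h, Hist2h, Hist3h or Hist4. This rule reads gene names, not levels. It gave 67 genes of the 55487 genes counted: 6 for H1, 18 for H2A, 18 for H2B, 12 for H3 and 13 for H4. On GRCm38, 54 of them lie in the Hist1 cluster on chromosome 13, 10 in the Hist2 cluster on chromosome 3, 2 are Hist3 genes on chromosome 11, and Hist4h4 is on chromosome 6.

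The measurement was total RNA sequencing of Langerhans cells, the dendritic cells of the epidermis, from the ears of mice of genotype HTR2A-/-, which lack the serotonin 2A receptor. CD207+ and MHC II+ cells were sorted from digested ears and then kept for 24 hours with imiquimod, a TLR7 agonist, and an agent labelled a-CD40L. There were 2 libraries, both of this 1 genotype and treatment, each built with the SMARTer Stranded Pico v2 kit from an input between 10 and 70 ng RNA. No untreated or wild-type cells were analysed here, so no value below is an effect of the deletion or of imiquimod. The labels do not give the age, sex or strain of the mice, the type of deletion, or whether the 2 samples came from separate mice or cultures. Differences between the libraries, and the p-values given for them, concern these 2 libraries alone.

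Replication-dependent histone genes supply the nucleosome proteins that a cell needs while it copies its DNA. H2A, H2B, H3 and H4 form the core around which DNA winds, and H1 binds the linker between cores. Their mRNAs are the animal mRNAs that end in a stem-loop instead of a poly(A) tail. The stem-loop is bound by SLBP and the end is cut with the help of the U7 snRNP. A poly(A) selection loses such mRNAs, while a total RNA library keeps them. Langerhans cells are a skin population that renews itself locally, and some of its cells divide.

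The stem-loop is the sequence that sets this family apart, so its forms are shown first. A 16-base pattern was searched in every GENCODE M21 transcript: 6 bases starting GG, a 4-base loop starting TTT, and the reverse complement of the first 6 bases. It was found in 44 of the 67 histone genes (65.7%) and in 0.128% of other protein-coding genes. In the sequences below the capitals mark the paired stem and the lower case marks the loop, 5′ to 3′, as DNA of the gene's own strand.
The form of 26 genes, among them Hist1h1c at chr13:23739512-23739527: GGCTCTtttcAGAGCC
The form of 6 genes, among them Hist1h1t at chr13:23696525-23696540: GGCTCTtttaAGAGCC
The form of Hist2h2ac at chr3:96220418-96220433: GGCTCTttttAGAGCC
The form of 7 H4 genes, among them Hist1h4d at chr13:23581950-23581965: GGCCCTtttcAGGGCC
The form of Hist1h4i and Hist2h4: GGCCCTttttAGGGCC
The form of Hist1h4b and Hist1h4j: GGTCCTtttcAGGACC
The coordinates are on GRCm38. The last 3 forms were found in H4 genes alone, and the first 3 in H1, H2A, H2B and H3 genes and in no H4 gene. Of the 23 genes with no match, 11 have a model that ends with the coding sequence and so holds no 3′ end to search. The other models can differ from the pattern by a base, so a missing match says only that these letters were not found. Gene models also differ in how far they run past the stem-loop: 3 bases in Hist1h2ap, 840 in Hist1h1c and 4884 in Hist1h1d. In all, 30 of the 67 genes have an exon length over 1.5 times the coding length, which lowers any level given per exon length.

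The region before the start site was read from RefSeq promoter sequences (GRCm38.p6), which matched 62 of the 67 genes. Each promoter covers 250 bases before and 50 bases after the start. The motifs named next were searched on both strands, and their shares were set beside those in all 27025 RefSeq promoters. The octamer ATTTGCAT, the binding site of OCT1, was found in 7 of 18 H2A and 6 of 16 H2B promoters, in no H1, H3 or H4 promoter, and in 1.75% of all promoters. The H1 box AAACACA was found in 5 of 6 H1 promoters, 2 H2A and 2 H2B promoters, no H3 or H4 promoter, and 7.14% of all. TATAAA was found in 35 of 62 (14.2% of all). CCAAT was found in every H1, H2A, H2B and H3 promoter searched but in 3 of 12 H4 promoters (37.9% of all). The E2F-type sequences TTTCGCGC and TTTGGCGC, counted as 1 motif, were found in 5 H2A and 4 H2B promoters (0.833% of all). These matches are descriptions of letters, not of bound factors, and H2A and H2B neighbours on opposite strands can share a window.

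The 150 bases before the start are printed for 4 H1 genes that differed in level or in ratio below and for 1 H2B gene with an octamer. Capitals mark the motifs named above, and each run is on the gene's own strand.
Hist1h1c, chr13:23738657-23738806 (+): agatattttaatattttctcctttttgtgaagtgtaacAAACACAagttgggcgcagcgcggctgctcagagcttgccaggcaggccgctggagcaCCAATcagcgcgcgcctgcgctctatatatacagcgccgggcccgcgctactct
Hist1h1e, chr13:23622559-23622708 (-): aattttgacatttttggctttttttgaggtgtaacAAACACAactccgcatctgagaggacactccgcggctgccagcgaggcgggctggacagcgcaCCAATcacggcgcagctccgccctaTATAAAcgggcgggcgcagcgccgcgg
Hist1h1a, chr13:23763518-23763667 (+): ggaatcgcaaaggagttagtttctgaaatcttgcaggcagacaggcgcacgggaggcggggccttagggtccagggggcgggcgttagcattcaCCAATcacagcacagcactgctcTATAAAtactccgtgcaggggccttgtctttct
Hist1h1t, chr13:23695661-23695810 (+): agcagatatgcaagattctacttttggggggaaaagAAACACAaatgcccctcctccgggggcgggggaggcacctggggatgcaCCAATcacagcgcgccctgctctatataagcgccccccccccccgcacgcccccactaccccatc
Hist1h2bg, chr13:23571250-23571399 (+): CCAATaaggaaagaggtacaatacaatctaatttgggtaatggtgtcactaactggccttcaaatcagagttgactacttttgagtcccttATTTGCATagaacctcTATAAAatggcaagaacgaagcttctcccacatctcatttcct
The H1 box starts 112, 115 and 114 bases before the start of Hist1h1c, Hist1h1e and Hist1h1t. A CCAAT starts 54, 52 and 65 bases before those starts and 56 bases before that of Hist1h1a, whose promoter is the H1 promoter without an exact H1 box. In Hist1h2bg the octamer starts 59 bases and the TATAAA 43 bases before the start.

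Many members encode the same protein. Many also share stretches of RNA sequence, and it is this sharing that limits how reads can be split between them. Translation of the annotated coding sequences gave 31 distinct proteins from the 67 genes. All 13 H4 genes encode 1 protein of 103 residues. The 12 H3 genes encode 3 proteins, 1 from 7 genes, 1 from 4 genes, and a longer model of 181 residues from Hist2h3c1. In H2A, 9 genes share a protein, and the 6 H1 genes encode 6 different proteins. At the level of the RNA, 37 of the 67 genes had at least 50% of their 50-base exon windows in no other member. The share was 91.5% for Hist1h1c, 89.8% for Hist1h4d, 13.6% for Hist1h2bn, 6.93% for Hist1h2ap and 2.68% for Hist1h2bq. Among H3 and H4 genes it was 26.6% for Hist1h3e, 12.4% for Hist1h3i, 14.4% for Hist1h4n and 28.5% for Hist1h4k. Values of single genes with low shares, in any class, are therefore uncertain. The labels do not say how reads that match several genes were counted.

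Library 1 held 69925160 counts and library 2 held 42264685. The column of library 2 carries a replicate number and that of library 1 does not. Htr2a, the deleted gene, had 77 and 117 counts, or 0.196 and 0.494 CPM (counts scaled to a common library total) per kb of exon, under the background limits given next. Langerhans cell markers were abundant, Cd207 at 1125 and 1052 CPM and the 8 markers summing to 22017 and 11822 CPM. Keratinocyte markers were also present: 10 genes summed to 4223 and 14385 CPM, and 8 of them were above background in both. T cell markers summed to 219 and 131 CPM and fibroblast markers to 114 and 42.7 CPM, with 0 of 6 fibroblast markers above background in both. Fewer cells of a type and less RNA per cell cannot be told apart in such bulk samples.

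The histone genes were strongly represented. Together they took 105227 counts in library 1 and 113392 in library 2, or 1505 and 2683 CPM (2094 ± 833 CPM, mean ± SD, n = 2). The background for a level was the 95th percentile of 1135 olfactory receptor genes, 0.761 CPM per kb in library 1 and 1.58 in library 2. In both libraries 60 of the 67 histone genes were above it, where 47.3% of all protein-coding genes were. The median histone gene had 22.3 and 34.1 CPM per kb, against 1.65 and 2.10 CPM per kb for the protein-coding genes tested between the libraries. The counts were concentrated: the most abundant gene took 12.4% and 15.9% of the histone counts, and the 10 most abundant took 48.1% and 54.3%. The order of the members was close between the libraries (Spearman's rho of CPM 0.962 over 67 genes that share the 2 libraries, a description).

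**Figure D1:**
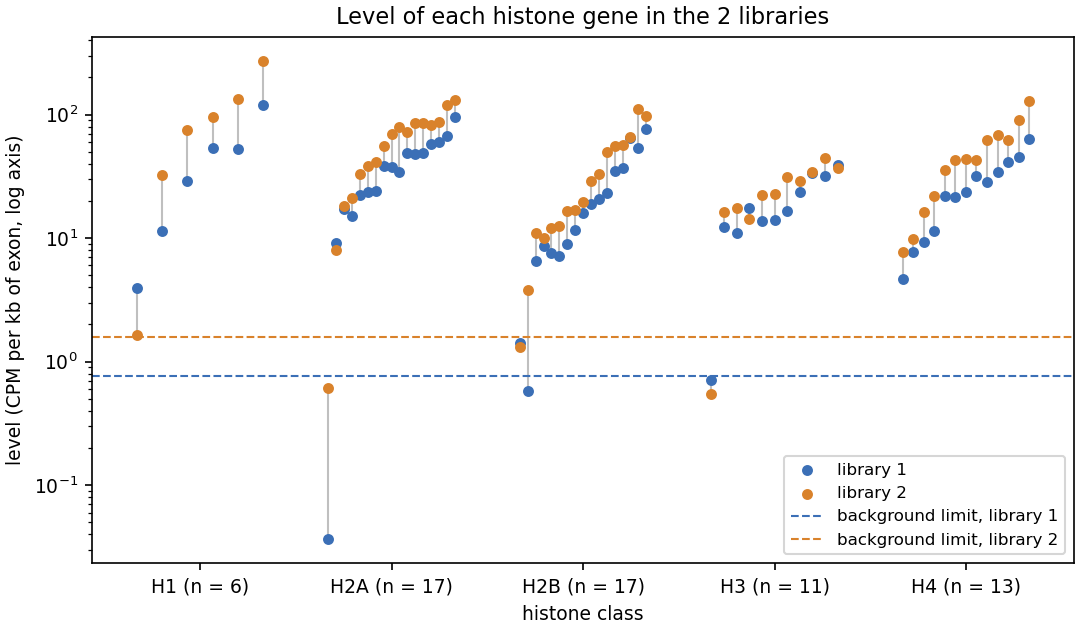
Level of each histone gene as CPM per kb of exon (log axis) in library 1 (blue) and library 2 (orange), grouped by class and sorted by mean level, with lines joining the 2 values of a gene. The dashed lines are the background limits of 0.761 and 1.58 CPM per kb, 3 genes with 0 counts in both libraries are not drawn, and most genes of every class lie well above both limits.

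Linker histone genes were the most abundant members by count. Hist1h1c, which encodes a somatic H1, had 13080 counts in library 1 and 18008 in library 2, or 187 and 426 CPM. Hist1h1e had 101 and 256 CPM, and Hist1h1d had 85.2 and 241 CPM. These 3 somatic H1 genes held most of the H1 counts in each library. Hist1h1b followed with 39.7 and 70.7 CPM, and Hist1h1a, a somatic H1 best known from dividing cells and thymus, with 21.5 and 55.8 CPM. Every one of these 5 genes was higher in library 2. Hist1h1t, the testis-specific H1, went the other way, with 251 counts in library 1 and 63 in library 2, or 3.59 CPM (95% Poisson interval 3.16 to 4.06) and 1.49 CPM (1.15 to 1.91). Its 1.63 CPM per kb in library 2 lay just above the limit of 1.58. It was the lowest H1 gene in both libraries. Per kb of exon Hist1h1c led with 120 and 273 CPM per kb, and Hist1h1d had 11.5 and 32.5 because its model spans 7425 exon bases for 666 coding bases. Hist1h1e and Hist1h2be share 496 exon bases on the same strand, so counts in that stretch cannot be assigned to either.

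No H2A gene held more than 10.5% of the class in library 1. Hist1h2ak had the highest level per length, 95.3 and 131 CPM per kb of exon, followed by Hist1h2ap with 66.6 and 120 and Hist1h2ah with 60.4 and 87.7. The 9 genes that encode the same protein summed to 189 and 303 CPM, 52.4% and 54.5% of the class. Hist1h2aa, the testis-specific H2A, had 1 and 10 counts. Its neighbour Hist1h2ba, the testis-specific H2B, chosen here after its values were seen, had 192 and 203 counts, or 2.75 and 4.80 CPM. Hist1h2aa was under the background limit in both libraries and Hist1h2ba above it in both.

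In H2B, Hist1h2bc had the most counts in both libraries, with a wider lead in library 1. It had 5218 and 3222 counts, or 74.6 and 76.2 CPM, 23.1% and 16.4% of the class. Hist1h2bq, named after its values were seen, had 2911 and 2786 counts, in library 1 fewer than Hist1h2bg. Only 2.68% of the windows of Hist1h2bq are in no other member, so its counts are uncertain. Hist1h2bg had the highest mean level per length, 75.7 and 97.0 CPM per kb, and Hist1h2bn had 53.5 and 110. Hist1h2bc, Hist1h2be and Hist1h2bg encode the same protein and summed to 150 and 185 CPM. Hist2h2be, at 260 and 144 counts, had 1.42 and 1.30 CPM per kb and did not pass the background limit in library 2. Hist3h2ba, named after its values were seen, had 25 and 99 counts and passed the limit in library 2 only.

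H3 was the smallest class by the counts as listed. Hist1h3e had 32.4 and 30.9 CPM, Hist1h3b 19.5 and 27.4 CPM, and Hist1h3i 13.76 and 14.01 CPM. The 7 genes of 1 protein, Hist1h3b to Hist1h3f with Hist2h3b and Hist2h3c2, summed to 115 and 143 CPM. The 4 genes of the other, Hist1h3a, Hist1h3g, Hist1h3h and Hist1h3i, summed to 37.8 and 47.8 CPM. The first group held 74.7% and 74.6% of the H3 counts, and this difference was not tested. Hist2h3c1 had 90 and 42 counts and lay under the background limit in both.

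All 13 H4 genes were above background in both libraries. Hist1h4d was far ahead, with 5058 and 6251 counts, or 72.3 and 148 CPM, 31.6% and 35.4% of the class. Hist1h4n had 19.5 and 38.6 CPM and Hist1h4k 12.8 and 19.5 CPM. Hist2h4 and Hist4h4 had the lowest levels per length, 7.76 and 9.83 CPM per kb and 4.65 and 7.65 CPM per kb. Their models are long, 1630 and 2863 exon bases for 312 coding bases.

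Hist2h2aa2, Hist2h2bb and Hist2h3b were listed at 0 in both libraries, which allows up to 0.0429 and 0.0710 CPM (3 counts; counting error only). All 3 lie in the Hist2 cluster, and all of their exon bases also belong to an exon of a gene on the opposite strand. Over Hist2h2aa2 lies the antisense gene Gm20632 (chr3:96239393-96241819), with 6501 and 4809 counts, or 93.0 and 114 CPM, more than any H2A gene counted here. The miRNA model Gm47311 inside Hist2h2aa2 had 541 and 389 counts. Hist2h3b and Hist2h2bb lie under Gm20628 (chr3:96267075-96270289), with 4031 and 4249 counts, or 57.6 and 101 CPM. Hist2h2aa2 has 0% of its windows in no other member, Hist2h3b 20.3% and Hist2h2bb 100%. Hist2h2aa1, with 1405 and 1972 counts, is covered by Gm20633 on the opposite strand (442 and 513 counts) and overlaps Gm20634 on its own strand (3214 and 1812 counts), which also covers all of Hist2h3c1. Whether the counting used strand is not stated in the labels, so the reads of these genes and their partners cannot be told apart. Of the histone pseudogenes, which are not members, Hist1h2aj had 836 and 700 counts.

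The classes differed in their share of the histone counts, and the linker class had a larger share in library 2. H1 held 29.1% of the histone counts in library 1 (exact 95% binomial interval 28.9 to 29.4%) and 39.2% in library 2 (38.9 to 39.4%). H2A held 24.0% and 20.8%, H2B 21.5% and 17.4%, and H3 10.3% and 7.15%. H4 held 15.2% (15.0 to 15.4%) and 15.6% (15.4 to 15.8%), so its intervals overlapped. For H1, H2A, H2B and H3 the intervals of the libraries were apart, by counting error alone. Because H1 coding sequences are longer, H1 shares were lower per coding kb, 19.0% and 26.7%. Per coding kb H2A was then the largest class in library 1 (26.0%) and H1 in library 2.

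Ratios between classes do not depend on how the libraries are scaled. The ratio of H1 to core histone counts was 0.411 in library 1 (95% interval 0.406 to 0.417) and 0.644 in library 2 (0.636 to 0.651). The ratio of H3 to H4 counts was 0.675 (0.658 to 0.692) and 0.459 (0.447 to 0.471). The ratio of H2A to H2B counts was 1.117 (1.097 to 1.137) and 1.195 (1.173 to 1.218). Core histones pair as H2A with H2B and as H3 with H4, and the second ratio moved more than the first. The class shares and ratios use the counts as listed. They leave out the counts of Gm20628, Gm20632 and Gm20634, whose reads cannot be told apart from those of Hist2 genes. Gm20628 alone had 4031 and 4249 counts, beside 10787 and 8102 for the H3 class, and it also covers Hist2h2bb of H2B. Gm20632 had 6501 and 4809 counts, beside 25225 and 23537 for the H2A class. The H2A, H2B and H3 values are therefore uncertain beyond their intervals. Over genes with at least 50% of windows in no other member, the mean share of H2A was 10.7% and of H2B 17.1%, the reverse order. Between the same libraries keratinocyte markers went from 4223 to 14385 CPM and Langerhans cell markers from 22017 to 11822 CPM. The part of these markers in the class ratios was not tested.

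**Figure D2:**
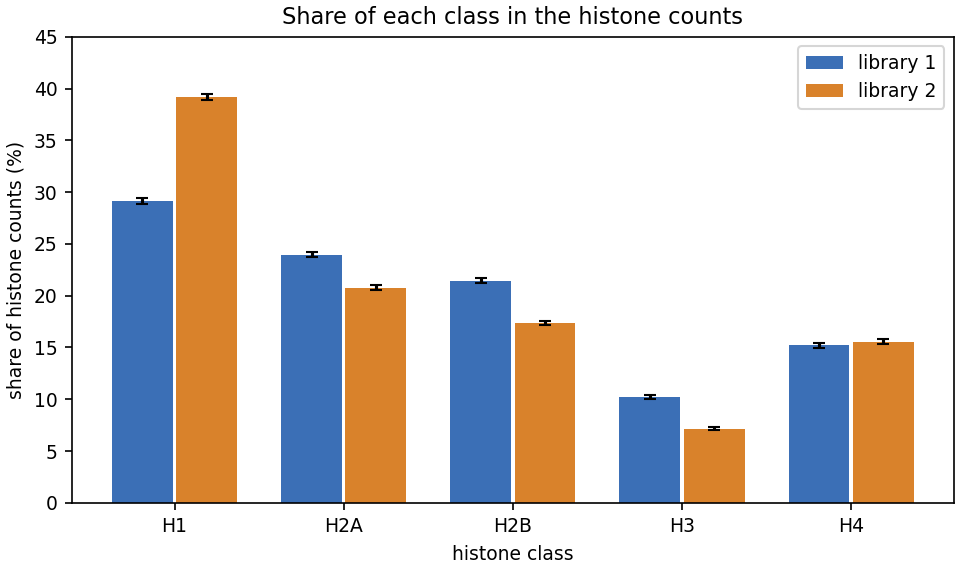
Share of each histone class in the histone counts (%) of library 1 (blue) and library 2 (orange), as bars from 0 with exact 95% binomial intervals for counting error. H1 is at 29.1% and 39.2%, H2A, H2B and H3 have smaller shares in library 2, and H4 is at 15.2% and 15.6%.

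The same genes were then compared between the libraries by edgeR's binomial test with TMM scaling, in which counting noise is the only error. The scaling lowered each log2 ratio by 0.50 relative to total counts, and the median of all genes tested was 0.15. Over all 30373 genes tested the test called 80.2% in either direction, 44.2% higher and 36.1% lower in library 2. Of 63 histone genes tested, 34 were called higher, 13 lower and 16 neither, with a median log2 ratio of 0.18. By direction, 54.0% of the histone genes tested were called higher and 20.6% lower. Their median lay 0.03 above that of all genes tested. Among the 19245 protein-coding genes tested, 7506 were called higher and 8483 lower, with a median log2 ratio of -0.04. With total counts alone the split was 55 higher and 2 lower, and with DESeq2 size factors 25 and 19. At a dispersion of 0.04, which adds a spread between samples, 2 were called higher and 1 lower. In 61 of the 63 genes both libraries passed the minimum of 1 CPM; Hist3h2ba passed through library 2 alone and Hist2h3c1 through library 1 alone.

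The H1 genes had the highest median ratio of the 5 classes. Hist1h1d had a log2 ratio of 1.00, Hist1h1a 0.88, Hist1h1e 0.83, Hist1h1c 0.69 and Hist1h1b 0.33. All 5 were called higher, where 44.2% of all genes tested were. Hist1h1t was called lower with a log2 ratio of -1.75 (adjusted p = 3.71e-21, edgeR binomial test, exact). The H1 median was 0.76, or 0.83 over the 5 genes without Hist1h1t. At a dispersion of 0.04 Hist1h1d and Hist1h1t kept their calls, while the adjusted p by edgeR was 0.089 for Hist1h1a, 0.105 for Hist1h1e, 0.190 for Hist1h1c and 0.564 for Hist1h1b. The direction of all 6 was the same with total counts and with DESeq2 size factors.

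Among H4 genes 10 of 13 were called higher and 1 lower, with a median of 0.41. Over all genes tested the shares were 44.2% higher and 36.1% lower. Hist1h4d had a log2 ratio of 0.53 and Hist1h4n of 0.48. Hist2h4 was the H4 gene called lower, at -0.16, and was at 0.34 with total counts. Among H3 genes 2 of 11 were called higher and 5 lower, with a median of -0.10 that was 0.40 with total counts. The 5 include Hist2h3c1, which passed the minimum of 1 CPM through library 1 alone, where it was higher. Hist1h3d fell by 0.80 and Hist1h3e by 0.57 on the log2 scale. Both were lower in library 2 with total counts too, Hist1h3e without passing the threshold.

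H2A and H2B genes lay around the median of all genes. In H2A 7 of 16 were called higher and 2 lower, with a median of 0.07 that was -0.04 with DESeq2 size factors. Of all genes tested, 44.2% were called higher and 36.1% lower. Hist2h2aa1, at 0.71, was the highest H2A gene and Hist2h2ab, at -0.69, the lowest. In H2B 10 of 17 were called higher and 4 lower, with a median of 0.16. The 10 include Hist3h2ba, which passed the minimum of 1 CPM through library 2 alone, where it was higher. Hist1h2bc was at -0.47 and Hist1h2bg at -0.14, and with total counts they were at 0.03 and 0.36. Hist2h2be was at -0.62. Hist3h2ba, at 2.16, was the gene with the largest ratio but rests on 25 counts in library 1.

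**Figure D3:**
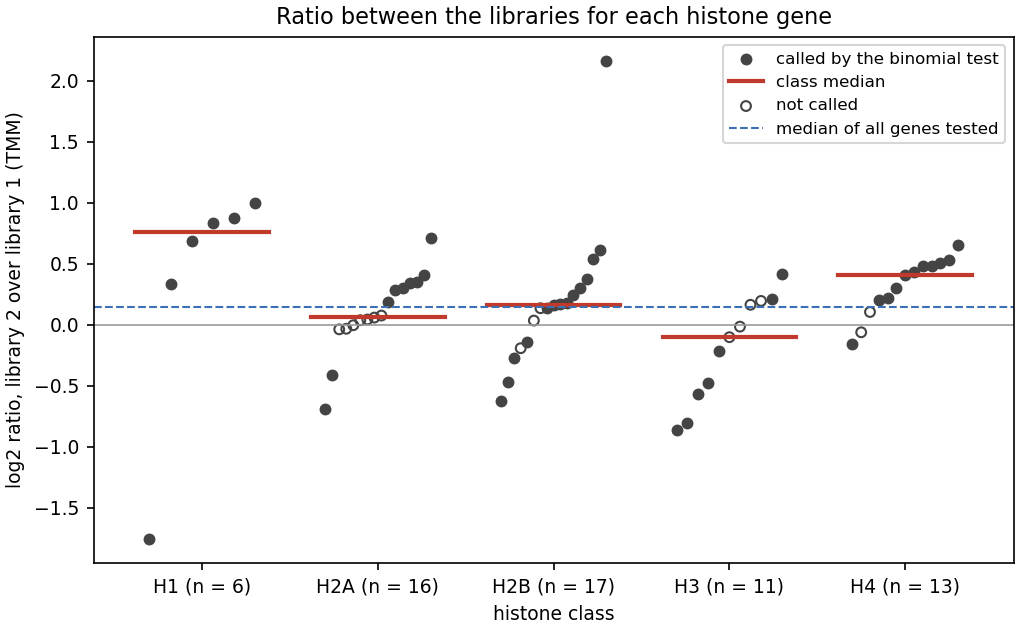
Log2 ratio of library 2 over library 1 with TMM scaling for each histone gene tested, by class. Filled points were called by edgeR's binomial test, open points were not, red bars are class medians (0.76 for H1, 0.07 for H2A, 0.16 for H2B, -0.10 for H3 and 0.41 for H4), and the dashed line is the median of all genes tested, 0.15.

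Position in the clusters was also described. On opposite strands and with starts within 1000 bases of each other, 13 pairs of members were found, 12 of them an H2A and an H2B gene, with starts 176 to 660 bases apart. In the 12 pairs with both genes tested the log2 ratios differed by a median of 0.22 and at most 0.62. The pair of Hist1h2an and Hist1h2bp had ratios of 0.29 and 0.37, and the pair of Hist1h2ak and Hist1h2bn had -0.04 and 0.54. The Hist1 cluster had a median log2 ratio of 0.18 over 53 genes tested, and the Hist2 cluster of -0.16 over 7, or 0.34 with total counts.

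Replacement and variant histone genes lie outside the replication-dependent set, and most are made also outside S phase. They were compared as a list of 11. The list summed to 1200 and 1636 CPM. In it 5 were called higher and 6 lower (44.2% and 36.1% over all genes tested). The median log2 ratio was -0.31, and 0.19 with total counts. H3f3b, which encodes the replacement H3, was the most abundant at 529 and 1029 CPM. H3f3a, which encodes the same protein, had 208 and 150 CPM, and H2afz 92.5 and 105 CPM. H1f0, a replacement linker histone, had 36.4 and 80.1 CPM and a log2 ratio of 0.64. In these libraries H1f0 was called higher in library 2, as were the 5 somatic replication-dependent H1 genes. H1fx, the other linker histone of the list, had 7.62 and 7.81 CPM and was called lower, with a log2 ratio of -0.47.

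The genes that make and process histone mRNA had a lower median level per kb of exon than the histone genes, 4.55 and 3.51 against 22.3 and 34.1 CPM per kb. By CPM without length their median was 31.2 and 25.6, against 15.1 and 23.8 for the histone genes. Of 15 genes found, 1 was called higher and 12 lower, with a median log2 ratio of -0.74, and of -0.24 with total counts. Over all genes tested 44.2% were called higher and 36.1% lower. Slbp, which binds the stem-loop, had 43.1 and 34.5 CPM. Npat, the co-activator of histone transcription, had 17.6 and 20.8 CPM, and Casp8ap2 39.1 and 23.4 CPM. Lsm11, a protein of the U7 snRNP, was the gene called higher, at 5.81 and 10.6 CPM. Upf1, an RNA helicase that also acts in histone mRNA decay, had the highest level per length, with 6643 and 4866 counts.

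Histone chaperones and importers were mostly lower in library 2 with TMM scaling. Of 16 genes, 2 were called higher and 12 lower, with a median log2 ratio of -0.40 that was 0.10 with total counts. The shares over all genes tested were 44.2% higher and 36.1% lower. Nap1l1, a chaperone of H2A and H2B, had the highest level per length of the list and 192 and 172 CPM. Ssrp1 and Supt16, the subunits of FACT, had 93.1 and 128 CPM and 138 and 148 CPM. Asf1b and Chaf1a, chaperones of newly made H3 and H4, had 5.96 and 5.92 CPM and 23.2 and 28.8 CPM.

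Genes of DNA replication and of division were detected in both libraries. Of 26 S phase genes, 24 were above background in both. Of the 26, 7 were called higher and 14 lower, where 44.2% and 36.1% of all genes tested were. Their median log2 ratio was -0.25, and 0.26 with total counts. Pcna, the sliding clamp, had 77.3 and 64.3 CPM, Mcm3 50.7 and 55.6 CPM, and Mcm6 58.6 and 54.8 CPM. Of 12 G2 and mitosis genes 11 were above background in both, 2 were called higher and 5 lower, with a median of -0.14 that was 0.36 with total counts. Mki67, a marker of cycling cells, had 370 and 301 CPM, Top2a 99.6 and 128 CPM, and Ccnb2 10.4 and 8.02 CPM. Summed, S phase genes had 619 and 737 CPM and G2 and mitosis genes 595 and 590 CPM. The H1 genes had 438 and 1051 CPM, and the core histone genes 1067 and 1632 CPM.

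Other RNAs without a poly(A) tail were listed beside the histone genes, and whether they are recovered like histone mRNA was not tested. Rn7sk had 9200 and 11859 CPM with a log2 ratio of -0.13, and Rpph1 5291 and 6830 CPM with -0.13. The 4 rows tested had a median of -0.09 (0.41 with total counts). Rmrp is on 2 rows of the table, and Rnu7, the U7 RNA, had 1 count in each library. Of the 1135 olfactory receptor genes, the background set, 893 reached 1 CPM in a library and had a median log2 ratio of 1.03. A gene near the floor can pass this filter through the library where it is high. Over all 1135 the median was 0.221 and 0.645 CPM per kb, so the background level was higher in library 2. Both values are small beside the median histone gene.

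**Figure D4:**
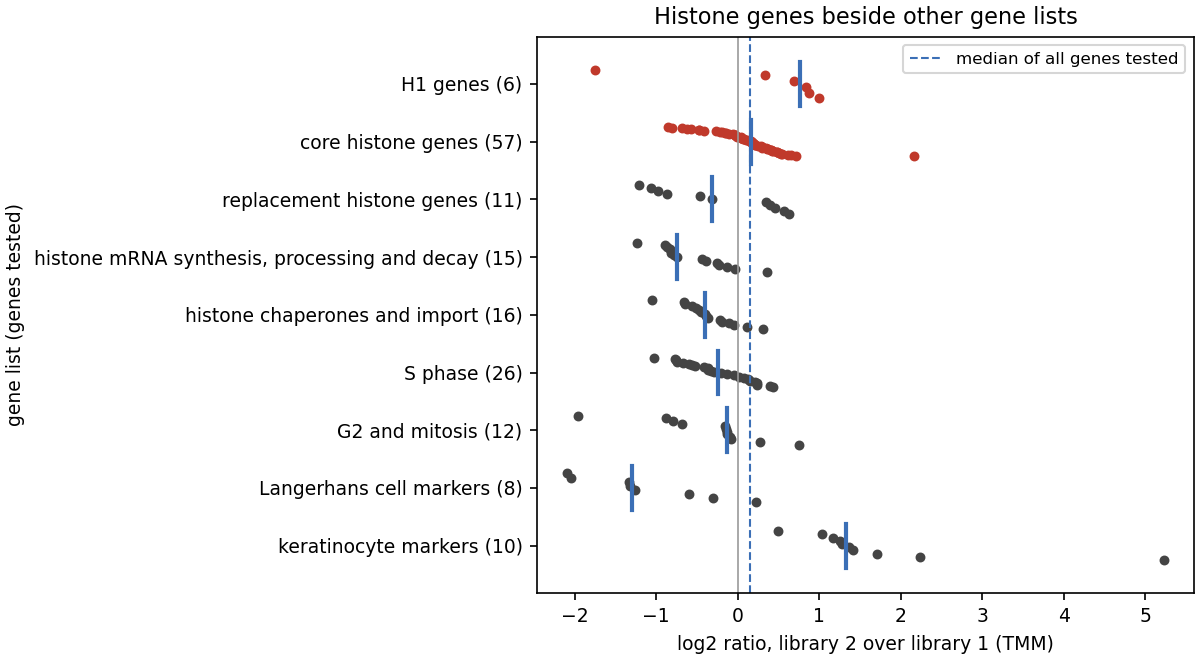
Log2 ratio of library 2 over library 1 with TMM scaling for the genes tested of 9 lists, 1 point per gene, with the H1 and core histone genes in red and each list's median as a blue bar. The dashed line is the median of all genes tested (0.15); H1 has a median of 0.76, keratinocyte markers 1.33 and Langerhans cell markers -1.29.

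All 10 keratinocyte markers were called higher in library 2, 9 of them at least 2-fold, and 7 of 8 Langerhans cell markers lower. Their median log2 ratios of 1.33 and -1.29 were 1.83 and -0.79 with total counts. Lor, 1 of the 10, had 14 and 483 counts and passed the minimum of 1 CPM through library 2 alone. Lor and Flg were under the background limit in library 1. Of all genes tested, 44.2% were called higher and 36.1% lower. Of 7 T cell markers 6 were called lower and 1 higher, and of 6 fibroblast markers 4 lower and 1 higher. Krt14 had 1315 and 4806 CPM, Krt5 904 and 3059 CPM, and Cd74 7188 and 4067 CPM. Cd207 had 1125 and 1052 CPM. By CPM, Epcam (155 and 178) and Cdh1 (481 and 793) were higher in library 2. These marker values differed between the same libraries as the histone genes and the other lists, and their part in those ratios was not tested.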

How the data were processed

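The authors deposited whole-number counts per Ensembl gene for the 2 libraries, not normalized. Trimmomatic, HISAT2, SAMtools, StringTie and GRCm38 are named, without versions, per the submitters' processing notes. Not given in the sources used here: annotation release, counting settings, strand handling and the unit counted (reads or read pairs). The closing row of column sums was dropped. Lengths came from GENCODE M21 (55227 of 55487 rows matched).

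CPM used total counts, and levels per kb the union of exons. The libraries were compared with edgeR 4.0.16 (R 4.3.3): its binomial test at dispersion 0 with TMM scaling, genes reaching 1 CPM in either library or both, Benjamini-Hochberg over all 30373 genes, threshold 0.05. It uses a chi-square approximation for very large counts. A quasi-likelihood test was not usable, since setting 1 library against the other leaves no residual degrees of freedom. The test was tested on simulated data. Intervals are exact 95% Poisson or binomial ones and cover counting error only, taking counts as independent. DESeq2 1.42.0 gave alternative size factors. Scripts in Python 3.11.15 searched the sequences.

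The members and lists were chosen with earlier results of these data known. Named were all H1 genes, the 3 highest and 2 lowest genes per core class by mean CPM per kb of exon, the 5 largest log2 ratios in each direction among genes with at least 50 counts in both libraries, genes at 0, and leading genes of the other lists; exceptions are stated. Zcchc6 and Rn7sl1 were not matched by symbol.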

Additional observations from a re-analysis of the deposited data

How the results depend on the processing

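The 67 genes form 1 group of 2 libraries. No paired analysis was possible because the libraries belong to a single group. Members above background were 61 to 61 with either library left out, 32 of 37 among genes with at least 50% of 50-base windows in no other member, and 38 of 43 with 100-base windows. The summed level was 1505 to 2683 CPM with a library left out. Leaving out a library gave shares of 29.1 to 39.2% for H1, 20.8 to 24.0% for H2A, 17.4 to 21.5% for H2B, 7.15 to 10.3% for H3 and 15.2 to 15.6% for H4.

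Mean shares depended on length and uniqueness. H1 held 34.1% by counts, 16.9% per exon kb, 22.8% per coding kb and 50.2% over the more unique genes. H2A held 22.4%, 33.7%, 24.8% and 10.7%. H2B held 19.4%, 20.1%, 21.8% and 17.1%, so it was above H2A over the more unique genes. H4 held 15.4%, 19.3%, 21.4% and 17.2%, and H3 went from 8.70% to 4.86% over the more unique genes. The coding length, 100-base windows, restriction of the ratios to the more unique genes and the centring on all genes were chosen after seeing the data.

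Between the libraries, 34 histone genes were called higher and 13 lower. Total counts gave 55 and 2, a dispersion of 0.04 gave 2 and 1, and the more unique genes gave 19 and 11 of 35. Over all genes, total counts gave 19632 higher and 6228 lower, against 13417 and 10954, and a dispersion of 0.04 gave 6568 and 3636. Leaving out the low-count filter gave 19886 higher and 14433 lower of 50799 genes. The H2A median turned to -0.035 with DESeq2 size factors, -0.033 over the more unique genes and -0.082 relative to all genes. With total counts the H3 median turned to 0.40, Hist1h2bc to 0.031, Hist1h2bg to 0.36, Hist1h3i to 0.026 and Hist2h4 to 0.34, a shift that the scaling itself adds to every gene. The direction of the 6 H1 genes held under every scaling tried.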
